A study of Mus musculus with 6 samples.

Results

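Psmb8, Psmb9, Ubd and H2-T25 are genes of antigen processing and presentation, and they are 4 of the 68 genes in a table of normalized expression from mouse colon. They were found in it by symbol. The study made bulk RNA-seq libraries from untreated colon of 3 wild-type (WT) and 3 Pum2-knockout (Pum2-/-) mice on the background of FVB, an inbred albino strain. The knockout line came from another laboratory and was kept on FVB by serial crossing to wild-type FVB mice. The number of crosses is not given in the sources used here. All mice drank water without dextran sulfate sodium. Pum2 encodes an RNA-binding protein of the PUF family, and the deletion is global, so it is present in every cell type of the tissue. For the colitis experiments and their untreated controls, the study's methods describe male mice of matched age, 8 to 10 weeks, with littermates of both genotypes sharing cages or allotted to cages at random. The age, litter and cage of each sequenced mouse are not given in the sources used here. The comparison asks which transcripts differ between the genotypes before any colitis is induced.

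All 69 rows of the table carry an adjusted p under 0.05 in the authors' own comparison, and 2 of those rows describe one gene. The 4 genes were therefore chosen for a difference between these same libraries, their genotype contrast is given as a description, and no test was made on it. Pum2 itself was at 17.8, 16.1 and 16.5 in WT replicates 1 to 3 and at 2.94, 2.68 and 1.45 in Pum2-/- replicates 1 to 3, so the targeted gene follows the labels. Library depth is unknown, because no other genes of the libraries are in the table. None of the 8 colon epithelium markers looked for is among the listed genes, and the tissue could not be checked by them.

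Class I antigen presentation begins with the proteasome, which cuts cytosolic proteins into peptides. Interferons induce alternative catalytic subunits that replace the constitutive ones and form the immunoproteasome, and some of the peptides it makes are bound by class I MHC molecules and shown at the cell surface. Psmb8 (LMP7) and Psmb9 (LMP2) encode catalytic subunits of this kind. Ubd encodes a ubiquitin-like modifier, also called FAT10, that marks proteins for degradation by the proteasome and is induced by interferon gamma and tumour necrosis factor. H2-T25 belongs to the H2-T family of class Ib MHC genes, relatives of the classical class I genes. In the gut, epithelial cells and leukocytes can both express genes of this pathway.

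All 4 genes lie within 3.01 Mb of chromosome 17 in the GENCODE M21 annotation of GRCm38. Psmb9 runs from 34181987 to 34187764 on the minus strand, and Psmb8 runs from 34197721 to 34201454 on the plus strand, 9.96 kb away. H2-T25, which this annotation calls Gm7030, runs from 36109719 to 36129425 on the minus strand. Ubd runs from 37193892 to 37196095 on the plus strand. Pum2 is on chromosome 12. The other listed genes on chromosome 17 are Fpr1, Rps18 and Srd5a2, and the nearest of them, the ribosomal protein gene Rps18, ends 226 kb before Psmb9. The normalized expression of Rps18 was 13.8, 145 and 152 in WT and 14.7, 12.4 and 25.9 in Pum2-/-. The groups overlapped through WT replicate 1, and the log2 difference was -1.96 with it and -3.07 without it, the latter an alternative chosen after seeing the data.

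The promoters are shown because the 4 genes had higher mean expression in the same libraries and all are known as targets of inflammatory signalling or are relatives of such targets. Each window is the RefSeq sequence of GRCm38.p6, from 250 bases before to 50 bases after the annotated start, in the direction of the gene. It is the C57BL/6J sequence, whereas the mice were on an FVB background. Capitals mark matches, on either strand, to an interferon-stimulated response element (GAAANNGAAA), a gamma-activated site (TTCNNNGAA) or a kappa B element (GGGNNTTTCC).
Psmb8, chr17:34197945-34198244, plus strand: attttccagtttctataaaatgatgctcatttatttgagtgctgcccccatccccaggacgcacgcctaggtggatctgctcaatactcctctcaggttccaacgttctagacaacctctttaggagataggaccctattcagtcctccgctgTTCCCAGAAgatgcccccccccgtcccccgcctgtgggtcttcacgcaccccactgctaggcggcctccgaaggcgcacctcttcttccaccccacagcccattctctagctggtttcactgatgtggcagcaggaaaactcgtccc
Psmb9, chr17:34187281-34187580, minus strand: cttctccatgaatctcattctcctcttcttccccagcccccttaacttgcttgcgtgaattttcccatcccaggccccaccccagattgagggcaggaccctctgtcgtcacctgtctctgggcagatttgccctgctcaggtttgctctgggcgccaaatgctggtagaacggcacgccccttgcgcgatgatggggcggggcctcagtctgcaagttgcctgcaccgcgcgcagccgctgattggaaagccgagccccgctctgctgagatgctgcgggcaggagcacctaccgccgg
Ubd, chr17:37193642-37193941, plus strand: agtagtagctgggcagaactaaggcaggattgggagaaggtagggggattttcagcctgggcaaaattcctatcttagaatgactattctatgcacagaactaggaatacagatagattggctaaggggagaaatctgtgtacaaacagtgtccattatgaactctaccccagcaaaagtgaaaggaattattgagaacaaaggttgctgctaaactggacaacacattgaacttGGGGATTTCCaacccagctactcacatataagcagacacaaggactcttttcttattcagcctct
H2-T25, chr17:36129376-36129675, minus strand: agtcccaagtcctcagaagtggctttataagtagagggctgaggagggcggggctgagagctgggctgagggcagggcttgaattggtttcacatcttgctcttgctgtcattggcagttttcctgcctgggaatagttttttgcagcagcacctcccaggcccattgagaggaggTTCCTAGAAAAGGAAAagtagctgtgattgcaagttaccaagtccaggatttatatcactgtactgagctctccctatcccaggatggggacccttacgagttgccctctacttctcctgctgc

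In the Psmb8 window, the gamma-activated site TTCCCAGAA lay 97 to 89 bases before the start. The H2-T25 window held the gamma-activated site TTCCTAGAA at 74 to 66 bases before the start, and it overlapped the interferon-stimulated response element GAAAAGGAAA at 68 to 59 bases. In Ubd the kappa B match GGGGATTTCC lay 15 to 6 bases before the start. No letters of these 3 motifs were found in the window of Psmb9. Among all 32851 promoter windows of this length, 3.44% held the interferon-stimulated response element, 8.3% the gamma-activated site and 1.63% the kappa B element. Among 40 windows of other listed genes, 8 (20%) held the interferon-stimulated response element, 8 (20%) the gamma-activated site and 1 (2.5%) the kappa B element. GENCODE places the first base of Psmb8 474 bases and that of Psmb9 434 bases upstream of the RefSeq start, so both lie outside the windows and the sequence around them was not searched. A match in letters does not show binding.

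Pum2 binds RNA through the Pumilio element, usually in the 3′ untranslated region. The element, searched as TGTANATA on the sense strand, was found in 0 of the 4 longest annotated 3′ untranslated regions of these genes. Those regions are short, at 188 bases in Psmb8, 298 in Psmb9, 382 in Ubd and 45 in H2-T25. Of all 21024 genes with a 3′ untranslated region, 23.2% held the element, and of the 5212 genes whose region is within the range of these 4 lengths, 4.41% held it. Regions not in the annotation and other forms of the element were not searched.

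Psmb8 was higher in every Pum2-/- library than in every WT library. Its normalized expression was 29.0, 22.2 and 35.0 in WT replicates 1 to 3 and 78.2, 63.0 and 193 in Pum2-/- replicates 1 to 3. Mean expression was 28.7 ± 6.40 (SD, n = 3) in WT and 111 ± 71.0 (SD, n = 3) in Pum2-/- mice. On the log2(value + 1) scale the difference, Pum2-/- minus WT, was 1.76 with a standard error of 0.523, or 3.40-fold. Pum2-/- replicate 3 stood above the other two knockout libraries, and without it the log2 difference was 1.28. The lowest Pum2-/- value was 1.80 times the highest WT value. In bulk tissue, for this and the other genes, a change in the number of cells of a type and a change in RNA per cell cannot be told apart.

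Psmb9, whose gene lies 9.96 kb from Psmb8, was also higher without overlap. It was at 31.9, 23.2 and 33.1 in the WT libraries and at 96.8, 65.7 and 155 in the Pum2-/- libraries. Mean expression was 29.4 ± 5.40 (SD, n = 3) in WT and 106 ± 45.4 (SD, n = 3) in Pum2-/- mice, and the log2 difference was 1.74 with a standard error of 0.388, or 3.35-fold. Among the 4 genes Psmb9 had the smallest spread within genotypes, with a coefficient of variation of 18.4% in WT and 42.9% in Pum2-/- mice. Its order over libraries was that of Psmb8 within each genotype, with replicate 3 highest and replicate 2 lowest. The closest values of the 2 genotypes were 1.98 times apart.

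Ubd, the ubiquitin-like modifier, had the largest mean difference of the 4 and the least even one. Its values were 32.9, 11.1 and 25.8 in WT replicates 1 to 3 and 24.4, 111 and 494 in Pum2-/- replicates 1 to 3. Pum2-/- replicate 1 lay below WT replicates 1 and 3, so the genotypes overlapped, while the other knockout libraries lay above all WT libraries. Mean expression was 23.3 ± 11.1 (SD, n = 3) in WT and 209.9 ± 250 (SD, n = 3) in Pum2-/- mice, and the Pum2-/- values spanned 20.3-fold against 2.96-fold in WT. The log2 difference was 2.33 with a standard error of 1.32. Without Pum2-/- replicate 3 it was 1.26, and without Pum2-/- replicate 1 it was 3.41. Of the 34 genes with a higher mean in Pum2-/- mice, 1 had a larger within-genotype SD on the log2 scale than Ubd, which was at 1.61 against a median of 0.642.

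H2-T25, the class Ib MHC gene, was higher without overlap and had the smallest difference of the 4. It was at 16.9, 8.08 and 10.07 in the WT libraries and at 29.3, 26.6 and 58.7 in the Pum2-/- libraries. Mean expression was 11.7 ± 4.65 (SD, n = 3) in WT and 38.2 ± 17.8 (SD, n = 3) in Pum2-/- mice, and the log2 difference was 1.60 with a standard error of 0.456, or 3.02-fold. WT replicate 1 was the highest WT library for this gene and Pum2-/- replicate 3 the highest knockout library. The lowest Pum2-/- value was 1.57 times the highest WT value.

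**Figure D1:**
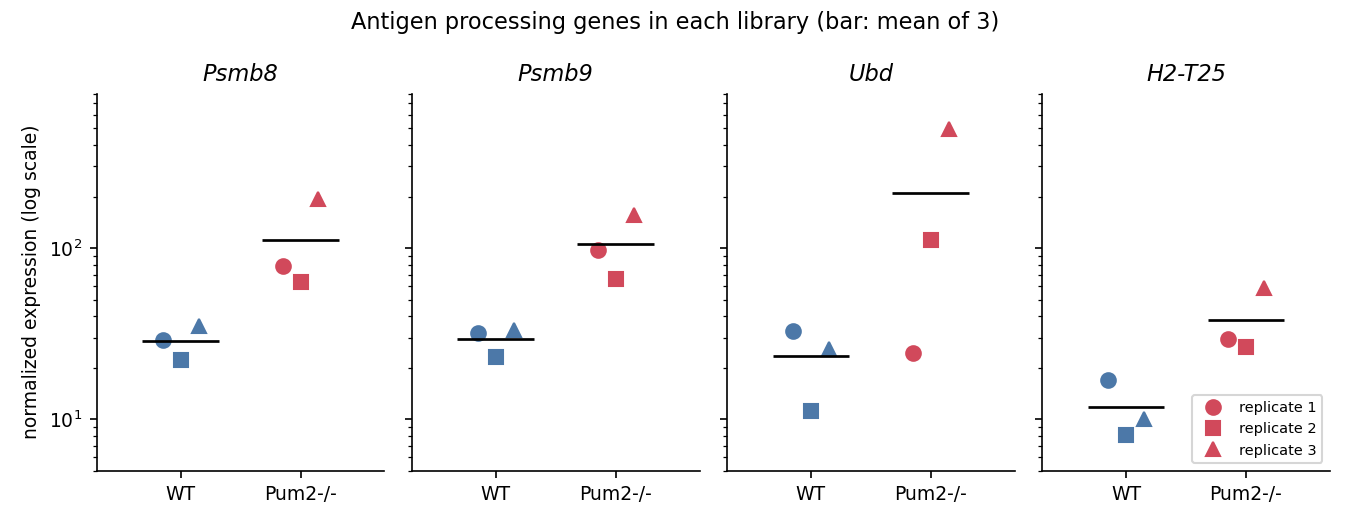
Normalized expression of Psmb8, Psmb9, Ubd and H2-T25 (log axis) in 3 WT (blue) and 3 Pum2-/- (red) libraries, with the marker shape giving the replicate number and the bar the mean. Psmb8, Psmb9 and H2-T25 separate by genotype, whereas Ubd in Pum2-/- replicate 1, at 24.4, lies among the WT values.

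H2-T25 shares much of its sequence with other genes. Of the 864 windows of 50 bases in its longest coding transcript, 525 (60.8%) also occur in annotated transcripts of 26 other genes. Gm11127 holds 495 of them, H2-T23, another class Ib gene, holds 111, and the classical class I gene H2-D1 holds 100. For Psmb8, Psmb9 and Ubd, 0 of 1579, 1303 and 882 such windows occur in another gene. The exons of H2-T25 also overlap those of Gm19684 on the opposite strand over 637 bases, or 68.7% of its exon bases. Exons of Psmb8 overlap the antisense gene Gm20496 over 498 bases (14.7%), and exons of Psmb9 overlap Tap1, the peptide transporter gene, over 212 bases (5.79%). Strand and the handling of shared reads in the authors' counting are not given in the sources used here, so the separate value of H2-T25 is uncertain.

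Of 8 markers of cytotoxic T and NK cells, 3 are listed (Gzma, Gzmb and Nkg7), and the others were not analysed here. Each of the 3 had its Pum2-/- values above its WT values, as had 30 of the 68 listed genes (44.1%). The list was chosen on this contrast, so nothing is read from that separation. The summed expression of the 3 markers was 25.1 to 83.4 in the WT libraries and 152 to 291 in the Pum2-/- libraries. The 21 markers of T cells, macrophages, dendritic cells, plasma cells and B cells are not listed and were not analysed here. Of the 17 listed immunoglobulin genes, products of B and plasma cells, 6 had higher and 11 had lower means in Pum2-/- mice. The part of any cell type in the 4 differences was not tested.

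Among the 68 genes, 34 had a higher mean log2 value in Pum2-/- mice (50%), and all 4 of these genes were among them. Complete separation, with each Pum2-/- library above each WT library, held in 3 of the 4 genes and in 30 of the 68 (44.1%). Since the list was chosen on this contrast, nothing is read from these counts. In the order of the 34 higher genes by log2 difference, Ubd was at place 15, Psmb8 at 27, Psmb9 at 31 and H2-T25 at 33. The median of the 4 log2 differences was 1.75, the median of the 34 higher genes was 2.07, and the median over all 68 genes was -0.15. Apart from Ubd, the antigen processing genes thus had smaller differences than the typical higher gene in the table.

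**Figure D2:**
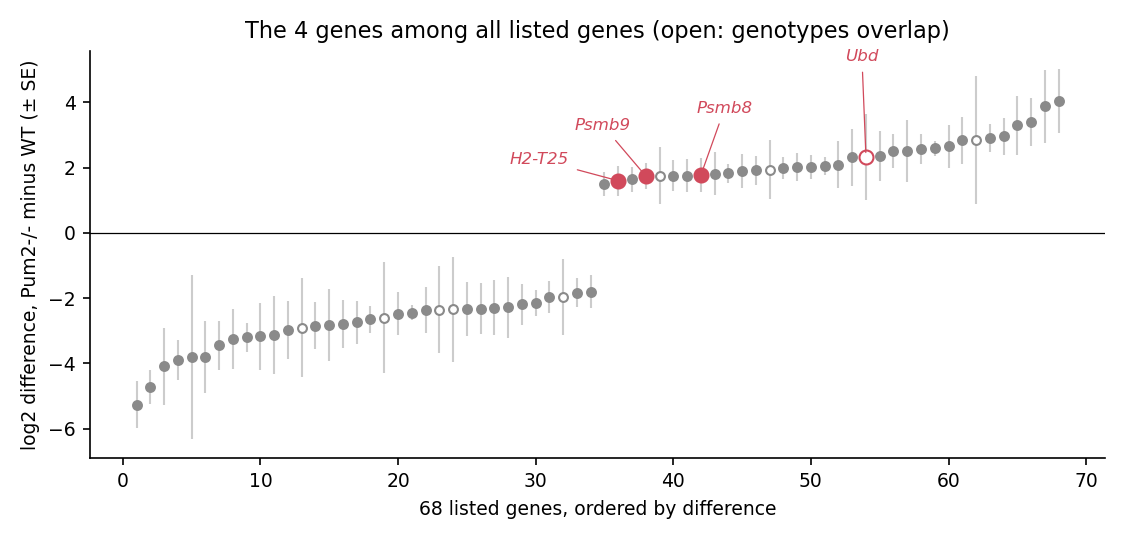
Log2 difference (Pum2-/- minus WT) with its standard error for the 68 listed genes in rising order, with Psmb8, Psmb9, Ubd and H2-T25 in red and open symbols where the genotypes overlap. H2-T25 (1.60), Psmb9 (1.74) and Psmb8 (1.76) sit at the low end of the higher genes, and Ubd (2.33) is open.

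No other gene of the pathway was described. Of 84 genes on 10 lists of antigen processing and presentation, these 4 are in the table and the other 80 were not analysed here. The latter include Psmb10, the third inducible catalytic subunit, the peptide transporter genes Tap1 and Tap2, B2m, the classical class I genes H2-K1 and H2-D1, and Nlrc5, a regulator of class I transcription.

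Ratios of 2 genes within a library do not depend on how whole libraries were scaled, and they show how evenly the genes changed. Their absolute size is not read here, because it is not known whether the values are per length. Psmb9 over Psmb8 was 1.10, 1.05 and 0.947 in the WT libraries and 1.24, 1.04 and 0.804 in the Pum2-/- libraries. The mean ratio was 1.03 ± 0.0767 (SD, n = 3) in WT and 1.03 ± 0.217 (SD, n = 3) in Pum2-/- mice. The log2 ratio differed between the genotypes by -0.02 with a standard error of 0.192. Thus the catalytic subunits kept a ratio within 1.54-fold over all 6 libraries, while Psmb8 itself ranged from 22.2 to 193. These genes were all listed with higher means in Pum2-/- mice, so a small genotype difference in a ratio partly follows from that choice. Such evenness is not particular to the catalytic subunits. By the measure of likeness given below, Psmb9 was closer to the interferon-inducible gene Ifi202b (0.125) than to Psmb8 (0.190).

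H2-T25 over Psmb8 was 0.584, 0.364 and 0.288 in WT and 0.375, 0.422 and 0.304 in Pum2-/- libraries. All 3 knockout ratios lay within the WT range, and the log2 ratio differed by -0.12 with a standard error of 0.330. Ubd over Psmb8 behaved otherwise. It was 1.13, 0.501 and 0.736 in WT and 0.312, 1.76 and 2.56 in Pum2-/- libraries, an 8.22-fold span. Its lowest and its highest value were both in Pum2-/- mice, and the log2 ratio differed by 0.58 with a standard error of 0.996.

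**Figure D3:**
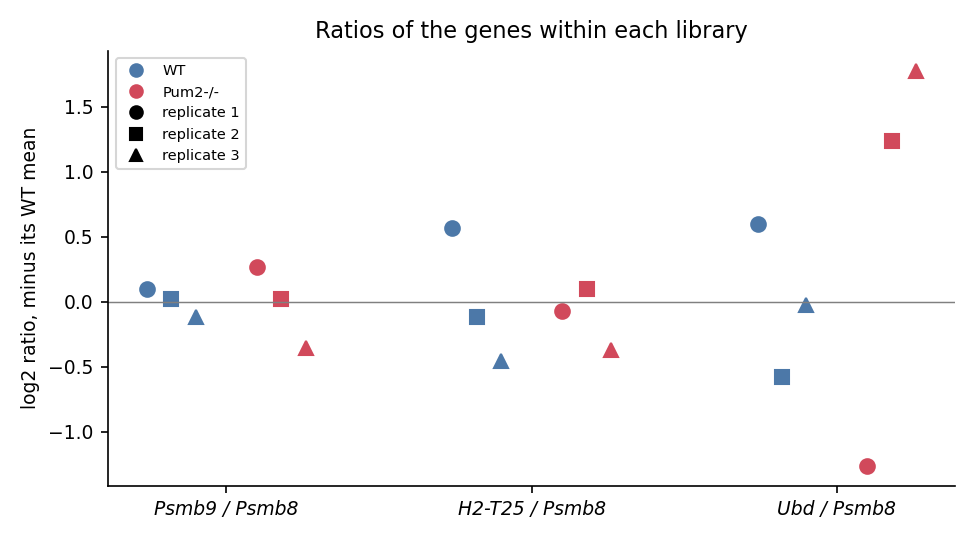
Log2 ratio of Psmb9, H2-T25 and Ubd to Psmb8 in each library, minus the mean of the WT libraries, with WT in blue, Pum2-/- in red and marker shape for the replicate number. The ratios of Psmb9 and H2-T25 overlap between genotypes, and those of Ubd span 8.22-fold.

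Within the knockout mice, replicate 3 held the highest value of all 4 genes. The origin of the low values in that library is unknown, as described under the processing. Over the 34 higher genes, replicate 3 was highest in 16. The interferon-inducible GTPase genes, which act against intracellular pathogens and respond to interferon gamma as Psmb8 and Psmb9 do, ran differently over the knockout libraries. Of the 7 listed, 1 (Igtp) was highest in replicate 3, 4 in replicate 2 and 2 in replicate 1. Iigp1 was at 79.2, 104 and 48.2 in Pum2-/- replicates 1 to 3, and Tgtp1 was at 59.7, 25.7 and 17.8. Reads of Tgtp1 may be shared with its close copy Tgtp2. The cytotoxic granule genes Gzma and Nkg7 were highest in replicate 3, as the 4 genes were, and Gzmb was highest in replicate 2. Other listed interferon-response genes were divided. Ifi202b and Ccl5 were highest in replicate 3, Ido1 and Cxcl9 in replicate 2, and Serpina3g in replicate 1. These differences in order were not tested. In the WT mice, replicate 2 was lowest for all 4 genes and for 24 of the 34 higher genes.

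**Figure D4:**
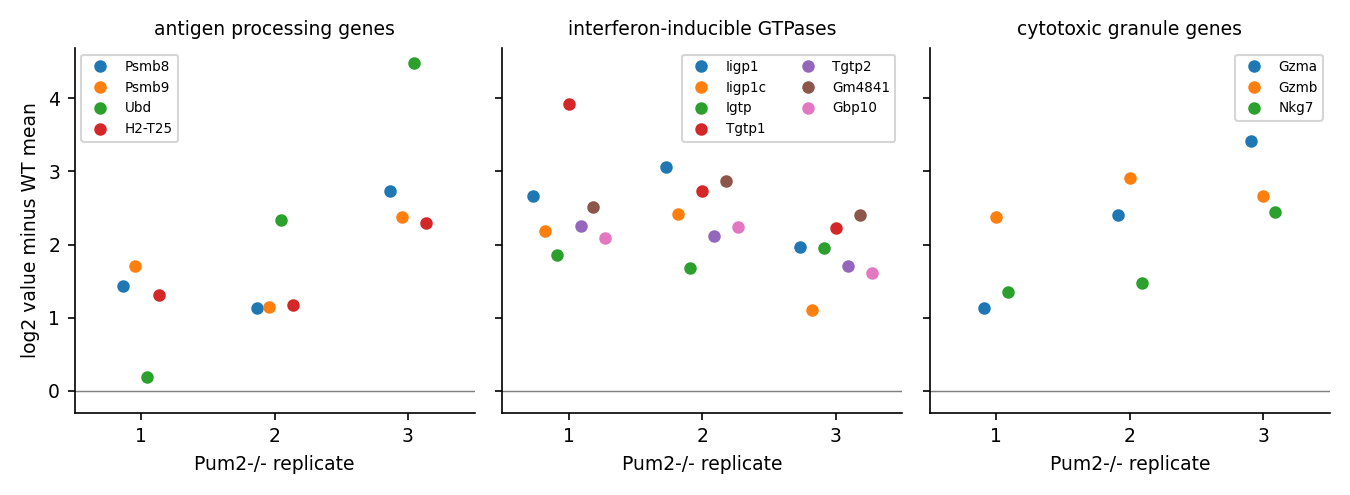
Log2(value + 1) of each gene in Pum2-/- replicates 1 to 3, minus its WT mean, for the 4 antigen processing genes, the 7 GTPase genes and the 3 cytotoxic granule genes (points are offset sideways for clarity). All 4 antigen processing genes are highest in replicate 3, as are 1 of the 7 GTPase genes, 2 of the 3 cytotoxic granule genes and 16 of the 34 higher genes.

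Likeness between profiles was measured as the root mean square difference of log2(value + 1) over the 6 libraries, each gene centred on its own mean, so that 0 is identity. Closest to Psmb8 were Psmb9 (0.190), Ifi202b (0.231), an interferon-inducible gene of DNA sensing, and Nkg7 (0.281). Psmb9 was closest to Ifi202b (0.125), then to Psmb8 (0.190) and H2-T25 (0.266). For H2-T25 the closest were the chemokine gene Ccl8 (0.227), Psmb9 (0.266) and the immunoglobulin gene Ighv3-3 (0.315). No listed gene came as near to Ubd, whose closest were Pcp4 (0.841), the chemokine gene Ccl4 (0.870) and Gzma (0.965). Psmb8, Psmb9 and H2-T25 were at 1.02, 1.16 and 1.07 from Ubd. Part of each likeness comes from the genotype difference for which the genes were listed.

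The differences depended on how libraries were scaled. When each library was divided by its median over the listed genes with no value at 0, log2 differences fell by a median of 0.91 over all genes, and the 4 genes became 0.75 for Psmb8, 0.73 for Psmb9, 1.33 for Ubd and 0.62 for H2-T25. The genotypes then overlapped in all 4 genes. In Psmb8 the lowest Pum2-/- value, 45.7, came just under the highest WT value, 47.2. The listed genes were chosen for their difference, and most of those left out for a value at 0 had lower means in Pum2-/- mice. This median therefore moves with the genotype, at 12.6 to 20.8 in WT and 29.8 to 33.7 in Pum2-/- libraries. The fall follows in part from that choice of genes, so it cannot show how firm the 4 differences are.

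**Figure D5:**
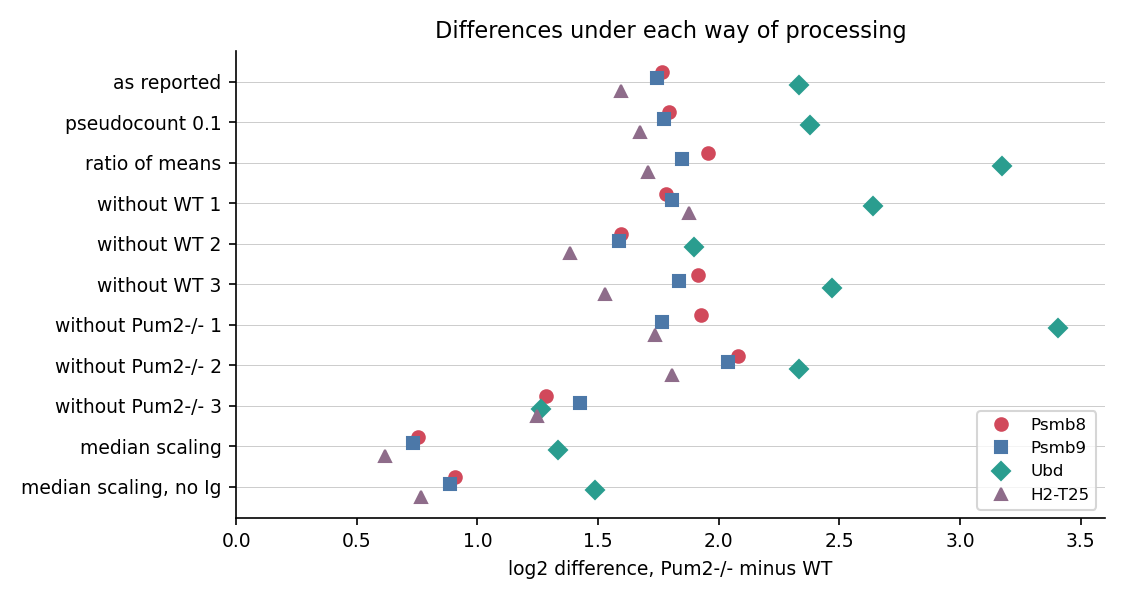
Log2 difference (Pum2-/- minus WT) of Psmb8, Psmb9, Ubd and H2-T25 as reported and under each alternative, where Ig stands for immunoglobulin genes. All values are above 0, the median scalings give the lowest values for Psmb8, Psmb9 and H2-T25, and Ubd runs from 1.26 to 3.41.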

How the data were processed

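Colon RNA was isolated using Trizol, and a SMARTER mRNA-Seq kit was used for the libraries. The authors deposited a normalized expression signal for each gene and library, and the aligner, counting tool, genome build, strand setting and normalization are not given in the sources used here. The authors also deposited their own comparison, as a log2 fold change with unadjusted and adjusted p-values, which were not used except to check that the adjusted p-value is under 0.05 in all 69 rows. Of rows sharing an Ensembl identifier only the first was kept, leaving 68 genes. Values of 4 genes that the file writes as a number next to 0 were set to 0. Depth is unknown, so neither counting error nor a detection limit is given. Low values of Pum2-/- replicate 3 did not fall on multiples of a common step. Some listed genes shared the same 3 Pum2-/- values, such as 2.95, 0 and 0.0626 in replicates 1 to 3. Very small values also occur in WT replicate 2, such as 0.0031. How these values arose is not given in the sources used here, and the independence of Pum2-/- replicate 3 could not be checked. With 3 libraries per genotype the p-values of an exact permutation test cannot go below 0.1, and no test was run.

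Groups and replicate numbers come from the sample titles. The difference of group means of log2(value + 1), which understates the change of low genes, is given with its standard error. The genes and lists were chosen with earlier results of these data known. Genes named are the 4 studied, Pum2, the listed genes of fixed pathway and marker lists (up to 4 of a comparison group), and for each of the 4 the 3 listed genes with the most similar profile. Fpr1, Rps18 and Srd5a2, the other listed genes on chromosome 17, were named after their values were seen. Alternatives were the log2 ratio of group means, a pseudocount of 0.1, median scaling with and without immunoglobulin genes, a mean value of at least 1, the replicate number as a block, and leaving out each library. Annotation was GENCODE M21 (GRCm38), matched by Ensembl identifier for all 68 genes, and RefSeq promoters (GRCm38.p6) were matched by gene ID for 4 of the 4 genes. Values were computed with numpy 2.4.6 and pandas 2.3.3 in Python 3.11.15 and drawn with matplotlib 3.10.9, and the code was tested on simulated data.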

Additional observations from a re-analysis of the deposited data

How the results depend on the processing

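The direction of the 4 log2 differences was the same under all alternatives that were run. Division by the median over listed genes that are not immunoglobulin genes gave 0.91 for Psmb8, 0.89 for Psmb9 and 0.77 for H2-T25, and division by the median over all listed genes gave 0.75, 0.73 and 0.62. Under the latter the number of genes wholly above WT fell from 30 to 19, and among the 4 from 3 to 0. This follows from the higher medians of the Pum2-/- libraries. Leaving out each library in turn gave 1.28 to 2.08 for Psmb8, 1.43 to 2.04 for Psmb9, 1.26 to 3.41 for Ubd, 1.25 to 1.88 for H2-T25, and 30 to 32 genes wholly above WT. Without Pum2-/- replicate 1, all 4 of the genes lay above WT. The log2 ratio of group means gave 3.17 for Ubd.

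With the replicate block, 32 of the listed genes and 3 of the 4 were higher in all 3 same-numbered pairs, and the log2 differences cannot change. For Ubd the ratio of Pum2-/- to WT was 0.741 in pair 1 and 19.2 in pair 3. Deviations of same-numbered libraries correlated across listed genes at 0.106, 0.0415 and 0.265. These values do not settle whether same-numbered mice are related, and the numbers were not taken as pairs.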

Other observations

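With the genotype means removed, the root mean square difference between log2 profiles over the 6 libraries was 0.189 between Psmb8 and Psmb9. The list was chosen by adjusted p-values, which also depend on the spread within genotypes, so the choice still bears on these values. Psmb9 lay closest to Ifi202b (0.125), and H2-T25 lay closest to Ccl8 (0.162), a monocyte chemokine gene. The histone gene H2bc23 was also near, at 0.198 from Psmb8, 0.227 from Psmb9 and 0.303 from H2-T25. H2bc23 was at 0 in all WT libraries, so only its Pum2-/- values vary. Ubd lay closest to Pcp4 (0.817) and Ccl4 (0.831). No test was made of these values, and each rests on 3 mice per genotype.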
